A study of Mus musculus with 12 samples.

Results

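Type 1 and type 2 conventional dendritic cells (cDC1 and cDC2) from the spleens of Zfp366-/- mice (KO) were compared with each other, to show which differences between the subsets were present in these mice. The comparison rests on 6 of the 12 libraries in the series, 3 of KO cDC1 and 3 of KO cDC2, chosen by their labels alone. The other 6 are cDC1 and cDC2 from zfp366+/+ mice (WT), used here for a matching comparison and for the test of the difference between genotypes. All mice were female and of strain C57/BL6, and their age was not given in the sources used here. The mice were pooled, pools 1 to 3 being KO and 4 to 6 WT, and both subsets were taken from every pool, so that a cDC1 and a cDC2 library share animals. Spleens were digested with collagenase and DNAse, the subsets were sorted, and polyA RNA was prepared with a TruSeq kit. The labels name no Cre driver and no conditional allele, and nothing says how the mutant allele was made.

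Conventional dendritic cells take up antigen and present it to T cells. The cDC1 subset depends on the transcription factor IRF8, carries XCR1 and CLEC9A at its surface, and is known for showing antigen from dying cells on MHC class I. The cDC2 subset expresses IRF4 and SIRPα, includes a splenic ESAM+ population that depends on Notch2, and is known for presenting antigen on MHC class II to CD4+ T cells. DC-SCRIPT, the protein encoded by Zfp366, has zinc fingers, is found mainly in dendritic cells and acts in the control of transcription.

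Reads of Zfp366 were present in every KO library. They came to 48.8, 48.4 and 45.4 CPM in KO cDC1 and 55.02, 80.6 and 65.1 CPM in KO cDC2. In WT they came to 152, 89.2 and 67.5 CPM in WT cDC1 and 52.6, 62.4 and 57.4 CPM in WT cDC2. The KO cDC1 libraries lay below all WT cDC1 libraries, whereas the KO and WT cDC2 libraries overlapped. A count per gene does not show which exons were read, so these levels do not check the deletion, and the genotype is used as labelled. Between the KO subsets Zfp366 did not pass the test (log2 fold change -0.49, SE 0.27, adjusted p = 0.232). It was called higher in cDC2 in the libraries numbered 2 and 3 (log2 fold change -0.65, adjusted p = 0.0043), a fit that called 6596 of 13415 genes.

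The total counts were 25313827, 24121179 and 23656486 in KO cDC1 and 34886405, 36761685 and 23737888 in KO cDC2. Levels are given as CPM, read counts scaled to library size with TMM factors. Across the 13415 genes tested, KO cDC2 replicate 1 correlated with the other KO cDC2 libraries at a mean Pearson r of 0.953 of log2 CPM, against means of 0.971 and 0.973 for those libraries and 0.984 to 0.988 for the KO cDC1 libraries. Replicate 1 of both KO subsets also had summed heat shock chaperone levels of 7501 CPM (cDC1) and 4691 CPM (cDC2). The other KO libraries had 21268 and 21326 CPM in cDC1 and 11847 and 11557 CPM in cDC2. Replicate 1 was low in WT too, at 7761 CPM in WT cDC1 and 4168 CPM in WT cDC2. The other WT libraries had 19494 and 16814 CPM in cDC1 and 25091 and 22611 CPM in cDC2. Counts were therefore also computed without KO cDC2 replicate 1 and from the libraries numbered 2 and 3 alone. In RNA from sorted populations, fewer cells of a type and less RNA per cell cannot be told apart.

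Between KO cDC1 and KO cDC2, 2264 of 13415 genes differed (16.9%) at an adjusted p-value below 0.05 in edgeR's quasi-likelihood test, fitted over all 12 libraries with Benjamini-Hochberg adjustment over all genes tested. A log2 fold change is given as cDC1 over cDC2, so that a negative value is higher in cDC2, and a gene passed or was called where its adjusted p was below 0.05. Of these, 1133 were higher in cDC1 (8.45%) and 1131 were higher in cDC2 (8.43%). The difference was at least 2-fold in 1825 of the called genes, at least 4-fold in 938 and at least 16-fold in 290. Each of the 1133 genes higher in cDC1 was so in 3 of 3 mouse pools, as were 1124 of the 1131 higher in cDC2. These genes were chosen by a test on the same libraries, so this agreement between pools is not separate support for the calls. The 3 libraries of 1 subset lay wholly above the other 3 in 2247 of the called genes, beside 47.8% of all genes tested, 25.1% with cDC1 above and 22.7% with cDC2 above. The number of calls depended on the libraries and on the model. It was 4237 in a fit of the 6 KO libraries alone, 6596 from the libraries numbered 2 and 3, and 1544 with the mouse pool as a block. It fell to 1317, 1244 and 1254 without KO cDC1 replicate 1, 2 and 3 in turn, and to 1210 and 1237 without KO cDC2 replicate 2 and 3. Without KO cDC2 replicate 1 it was 2984. The counts within gene lists moved accordingly, and those that moved by more than 1.5 times without a single library are given beside each list. Every list count stands beside the 8.45% of all genes higher in KO cDC1 and the 8.43% higher in KO cDC2.

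**Figure D1:**
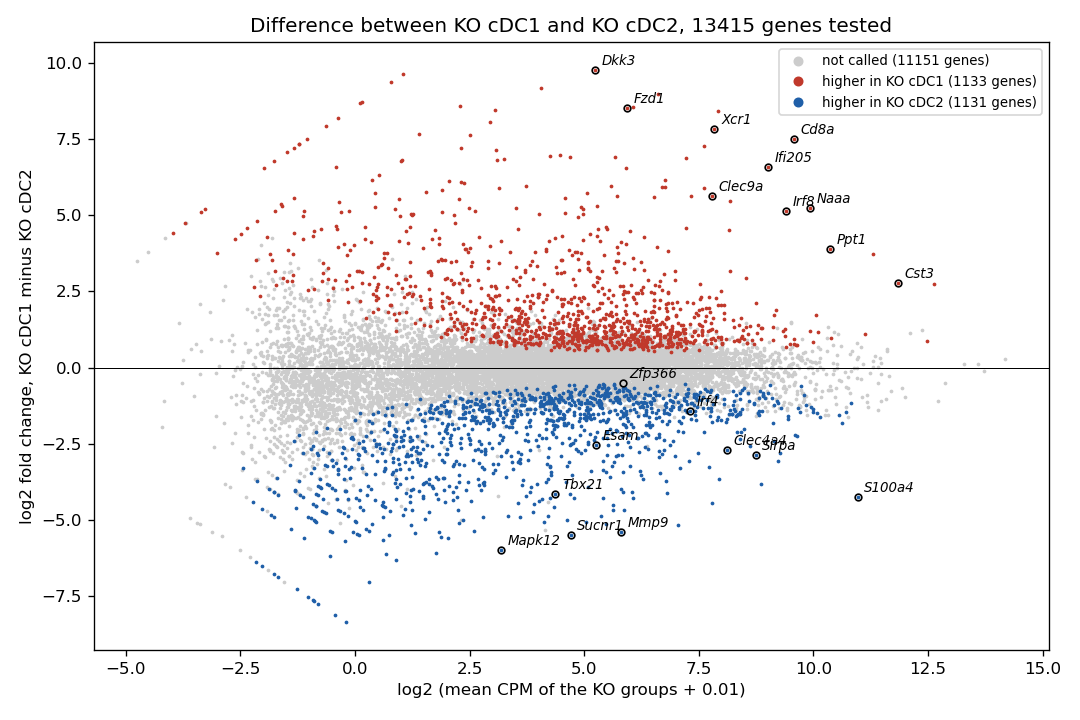
Log2 fold change of KO cDC1 over KO cDC2 (y axis) against the log2 mean CPM of the KO groups with 0.01 added (x axis) for the 13415 genes tested; red points are the 1133 genes called higher in cDC1, blue points the 1131 called higher in cDC2 and grey points were not called. Circled genes are named in the text; among these, Dkk3 and Xcr1 stand near the top, Mapk12, Sucnr1 and Mmp9 at the bottom, and Zfp366 near 0.

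The labelled subsets were checked against 6 markers, 3 of each subset, and all 6 differed in the labelled direction. Xcr1, the chemokine receptor of cDC1, was at 502, 431 and 437 CPM in KO cDC1 and 2.96, 1.62 and 1.43 CPM in KO cDC2 (log2 fold change 7.82, SE 0.75, adjusted p = 2.03e-05). Clec9a, a receptor for actin exposed by dead cells, was at 481, 401 and 411 CPM in KO cDC1 and 8.64, 8.43 and 8.98 CPM in KO cDC2 (log2 fold change 5.63, SE 0.87, adjusted p = 7.83e-04). Irf8, the transcription factor on which cDC1 depend, was at 1418, 1254 and 1249.6 CPM in KO cDC1 and 46.4, 33.1 and 31.7 CPM in KO cDC2 (log2 fold change 5.14, SE 0.53, adjusted p = 3.82e-05). For all 3 cDC1 markers the lowest cDC1 library was far above the highest cDC2 library.

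The 3 cDC2 markers were higher in KO cDC2 but were also detected in every KO cDC1 library. Sirpa, the receptor for CD47, was at 88.9, 105 and 112 CPM in KO cDC1 and 917, 665 and 680.0 CPM in KO cDC2 (log2 fold change -2.88, SE 0.26, adjusted p = 1.13e-05). Irf4, the transcription factor of cDC2, was at 99.99, 86.7 and 74.2 CPM in KO cDC1 and 281, 214 and 200.4 CPM in KO cDC2 (log2 fold change -1.41, SE 0.25, adjusted p = 0.00191). Clec4a4, the lectin recognised by the antibody 33D1, was at 75.5, 72.5 and 73.6 CPM in KO cDC1 and 283, 567 and 584 CPM in KO cDC2 (log2 fold change -2.69, SE 0.33, adjusted p = 1.33e-04). No library of KO cDC1 reached the lowest KO cDC2 library for any of them.

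In WT libraries the same 3 genes were further apart. Sirpa was at 30.3, 22.3 and 21.5 CPM in WT cDC1 and 499, 785 and 706 CPM in WT cDC2. Irf4 was at 18.5, 12.7 and 10.1 CPM in WT cDC1 and 322, 249 and 268 CPM in WT cDC2. Clec4a4 was at 3.35, 6.58 and 6.302 CPM in WT cDC1 and 528, 349.8 and 373 CPM in WT cDC2. The cDC2 libraries of the 2 genotypes overlapped for each gene, and the KO cDC1 libraries lay above the WT cDC1 libraries. The test of the KO subset difference against the WT subset difference called all 3 genes (Clec4a4 by 3.57, SE 0.45, adjusted p = 0.00165; Irf4 by 2.93, SE 0.35, adjusted p = 0.00136; Sirpa by 1.86, SE 0.34, adjusted p = 0.0147). That of Sirpa did not pass with the mouse pool as a block (adjusted p = 0.129), nor without KO cDC1 or KO cDC2 replicate 2 or 3 or WT cDC1 replicate 2 (adjusted p = 0.0561 to 0.0634). The 3 cDC1 markers did not pass this test, with adjusted p-values of 0.825 for Xcr1, 0.997 for Clec9a and 0.932 for Irf8. Clec9a was called without WT cDC2 replicate 1, with a wider difference in WT (-2.16, adjusted p = 0.0371). Itgam, which encodes CD11b, a surface marker by which cDC2 are commonly known, did not pass between the KO subsets, at 128, 127 and 120.4 CPM in KO cDC1 and 218, 92.4 and 97.4 CPM in KO cDC2 (log2 fold change -0.12, SE 0.35, adjusted p = 0.845). In WT, Itgam was at 6.49, 3.57 and 3.35 CPM in WT cDC1 and 90.3, 157 and 147 CPM in WT cDC2, and the 2 differences themselves differed (by 4.76, SE 0.53, adjusted p = 8.42e-04). Itgam was called higher in KO cDC1 in the libraries numbered 2 and 3 (log2 fold change 0.37, adjusted p = 0.0143), so that its direction rests on KO cDC2 replicate 1. That fit called 6596 of 13415 genes.

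**Figure D2:**
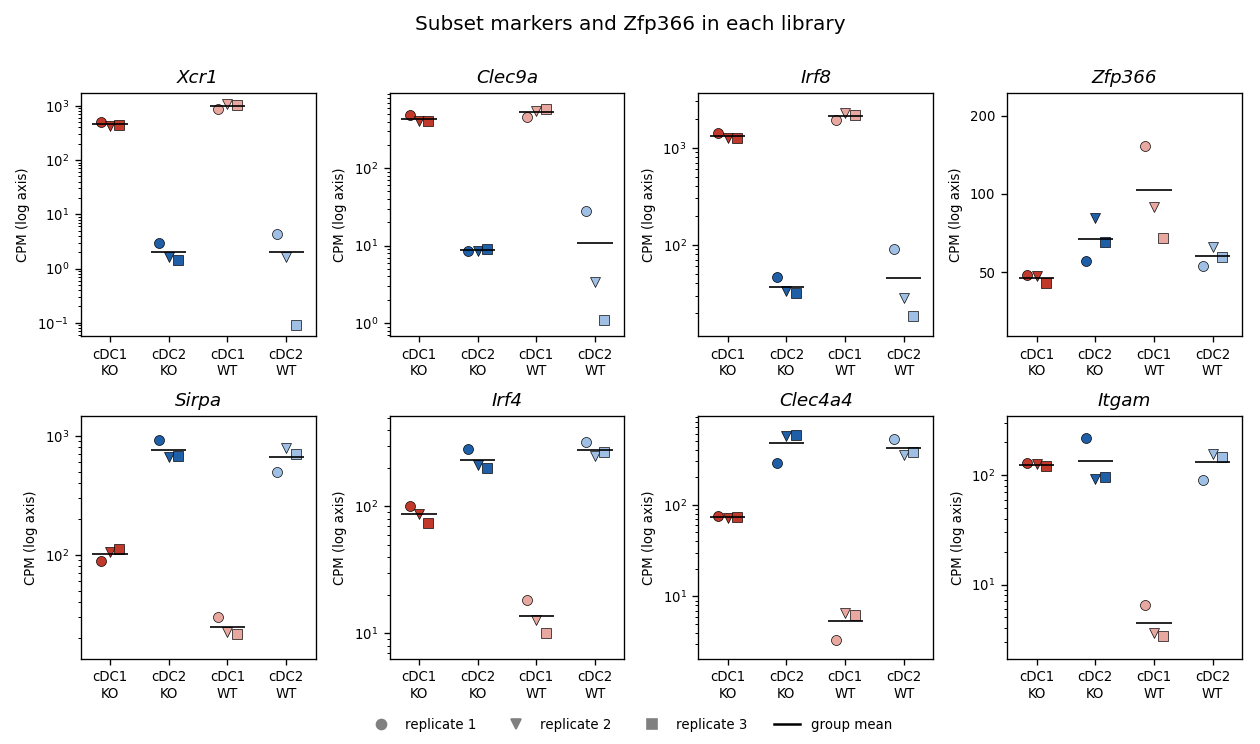
CPM (log axis) of 3 cDC1 markers, 4 genes of cDC2 and Zfp366 in each of the 12 libraries; symbols mark the replicate, colours the group, and lines the group means. Xcr1, Clec9a and Irf8 lie far apart between the subsets of both genotypes, and for Sirpa, Irf4, Clec4a4 and Itgam the KO cDC1 points stand above the WT cDC1 points.

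The cDC1 signature was present in KO cDC1. Of its 28 genes, 25 were higher in KO cDC1, none was higher in KO cDC2, and the median log2 fold change was 5.23, beside a median of 0.00 and 16.9% called over all genes. Without KO cDC2 replicate 1 the count was 26. Cd8a, the coreceptor chain that marks splenic cDC1, was at 1488, 1482 and 1557 CPM in KO cDC1 and 14.4, 5.04 and 5.33 CPM in KO cDC2 (log2 fold change 7.51, SE 1.11, adjusted p = 5.70e-04). Tlr3, the endosomal receptor for double-stranded RNA, was at 238, 202 and 199 CPM in KO cDC1 and 4.83, 2.74 and 2.98 CPM in KO cDC2 (log2 fold change 5.92, SE 0.41, adjusted p = 2.58e-06). Both genes were in every cDC1 library many times above every cDC2 library. Rab7b, a late endosomal GTPase (log2 fold change 7.28, adjusted p = 5.43e-05), Hepacam2 (6.89, adjusted p = 1.54e-05), Cadm1, the adhesion molecule that binds CRTAM on T cells (5.61, adjusted p = 1.15e-05), and Cd36, a scavenger receptor (5.45, adjusted p = 1.11e-05), followed the same order.

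The 3 signature genes that did not pass were regulators or adaptors. Batf3, the transcription factor needed for cDC1 development, was at 89.4, 78.6 and 88.1 CPM in KO cDC1 and 57.1, 77.6 and 70.3 CPM in KO cDC2, with ranges that were close and did not overlap (log2 fold change 0.32, adjusted p = 0.323). Nfil3, a repressor needed for dendritic cell precursors to become cDC1, was at 69.9, 74.1 and 74.4 CPM in KO cDC1 and 54.1, 27.5 and 26.2 CPM in KO cDC2 (log2 fold change 1.02, adjusted p = 0.0807). Wdfy4, an adaptor needed for cross-presentation, was at 2262, 1862 and 1978 CPM in KO cDC1 and 1185, 827 and 838 CPM in KO cDC2 (log2 fold change 1.10, adjusted p = 0.101). For Nfil3 and Wdfy4 the KO subsets did not overlap, and both passed in the fit of the 6 KO libraries. In the fit over all 12 libraries, no gene of the cDC1 signature was called in the test of the KO against the WT subset difference. Cd207, which encodes langerin, was at 1.63, 1.11 and 2.42 CPM in KO cDC1 and 0.165, 0.112 and 0.042 CPM in KO cDC2. In WT, Cd207 was at 41.5, 165 and 184 CPM in WT cDC1 and 0, 0.372 and 0.0911 CPM in WT cDC2. Its log2 fold change was 3.87 in KO and 9.70 in WT, but the adjusted p of the difference was 0.0629. That difference was called in 5 of 20 alternatives. The KO call of Cd207 was lost in limma-voom (adjusted p = 0.123).

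Among called genes with a mean of at least 10 CPM in the higher subset, the largest differences in favour of KO cDC1 were in genes with few reads in KO cDC2. Dkk3, a secreted glycoprotein of the Dickkopf family, was at 61.2, 82.7 and 82.8 CPM in cDC1 and had 8 reads in the 3 KO cDC2 libraries together (log2 fold change 9.76, SE 0.54, adjusted p = 7.46e-07). Gcsam, a regulator of lymphocyte motility, was at 208, 183 and 195 CPM in KO cDC1 and 0.823, 0.224 and 0.042 CPM in KO cDC2 (log2 fold change 8.96, SE 1.09, adjusted p = 1.31e-04). P3h2, a collagen prolyl hydroxylase (log2 fold change 8.55, adjusted p = 4.10e-07), and Fzd1, a Wnt receptor (8.53, adjusted p = 2.03e-05), stood beside them. Next in order were Gpr141b, an orphan receptor (8.41, adjusted p = 1.41e-04), Clnk, an adaptor of immunoreceptor signalling (8.06, adjusted p = 7.74e-06), and Gpr33, a chemoattractant-like receptor (7.65, adjusted p = 8.99e-05). Clnk and Gpr33 had 5 reads each over the 3 KO cDC2 libraries, so the sizes of these fold changes rest on few reads.

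Among the genes at least 4-fold higher in KO cDC1, the most abundant per kilobase of gene length included proteins of the endosomes and lysosomes. Mean RPKM (CPM divided by gene length in kilobases) in KO cDC1 was 8616 for Cst3, the inhibitor cystatin C, 4073 for Psap, the precursor of the saposins, and 1073 for Mpeg1, the pore-forming protein perforin-2. It was 988 for Ppt1, the lysosomal palmitoyl thioesterase, and 629 for Ifi205, a DNA-binding protein of the p200 family. Ppt1 was at 2527, 2358 and 2502 CPM in KO cDC1 and 175, 160.1 and 158 CPM in KO cDC2 (log2 fold change 3.91, SE 0.27, adjusted p = 2.58e-06). Psap was at 11871, 10560.1 and 10941 CPM in KO cDC1 and 3075, 899.9 and 973 CPM in KO cDC2, and its KO cDC2 replicate 1 stood above the other cDC2 libraries.

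The cDC2 signature was present in KO cDC2 but in fewer genes. Of its 24 genes, 14 were higher in KO cDC2, 1 was higher in KO cDC1 and 9 did not pass, with a median log2 fold change of -1.66. Between the WT subsets 22 of the same genes were higher in cDC2, with a median of -4.22. Without KO cDC2 replicate 1 the KO count was 15, and in the libraries numbered 2 and 3, where 6596 of 13415 genes were called, it was 19. The subset difference differed between genotypes in 12 of the 24, beside 1.42% of all genes. Tbx21, the T-box factor that marks a cDC2 branch, was at 1.47, 2.72 and 2.46 CPM in KO cDC1 and 37.99, 39.8 and 39.7 CPM in KO cDC2 (log2 fold change -4.14, SE 0.31, adjusted p = 4.64e-06). Esam, the adhesion molecule of the Notch2-dependent cDC2, was at 11.7, 11.7 and 10.4 CPM in KO cDC1 and 65.3, 63.4 and 68.03 CPM in KO cDC2 (log2 fold change -2.54, SE 0.21, adjusted p = 6.37e-06). The subsets did not overlap for either gene, and the KO cDC2 libraries were nearly level. The test of the difference from WT did not call either (adjusted p = 0.892 and 0.595).

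Other genes of cDC2 were called in both genotypes with a narrower difference in KO. Cd209a, a homologue of DC-SIGN, was at 47.9, 41.1 and 44.2 CPM in KO cDC1 and 389, 267 and 284 CPM in KO cDC2 (log2 fold change -2.82 in KO and -5.43 in WT; the difference was 2.61, SE 0.45, adjusted p = 0.0108). Dtx1, a target and regulator of Notch, was at 32.6, 42.9 and 41.5 CPM in KO cDC1 and 229.9, 194 and 195 CPM in KO cDC2 (-2.40 in KO and -6.07 in WT; 3.66, SE 0.30, adjusted p = 1.85e-04). Clec4a1, a lectin of the same gene cluster as Clec4a4 and Clec4a2, among which reads may be shared, was narrower too (-2.23 and -4.86; 2.63, SE 0.39, adjusted p = 0.00419). The last did not pass with the mouse pool as a block (adjusted p = 0.051). All the KO cDC1 libraries of these genes were below the KO cDC2 libraries.

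Further genes were higher in cDC2 between the WT subsets and did not pass between the KO subsets. Clec4a2, an inhibitory lectin, was at 198, 174 and 189.5 CPM in KO cDC1 and 100.2, 313 and 303 CPM in KO cDC2 (log2 fold change -0.35, adjusted p = 0.645). Tnfrsf13b, the BAFF and APRIL receptor TACI, was at 18.2, 17.4 and 17.03 CPM in KO cDC1 and 23.7, 17.2 and 14.1 CPM in KO cDC2 (log2 fold change -0.06, adjusted p = 0.895). Gpr183, the oxysterol receptor that guides cDC2 to the bridging channels of the spleen, was at 416, 341 and 375 CPM in KO cDC1 and 169.9, 618 and 651 CPM in KO cDC2 (log2 fold change -0.35, adjusted p = 0.579). In WT the log2 fold changes were -5.54, -3.22 and -3.54, and the tests of the difference gave adjusted p = 0.00244, 0.00154 and 0.0117. That of Gpr183 was 0.0743 with the mouse pool as a block. Clec4a2 and Gpr183 depend on KO cDC2 replicate 1, which had the lowest level of either gene. Both were called higher in KO cDC2 in the libraries numbered 2 and 3, where 6596 of 13415 genes were called. The 1 signature gene higher in KO cDC1 was Clec12a, an inhibitory receptor for uric acid crystals, at 311, 284 and 313 CPM in KO cDC1 and 68.95, 57.6 and 66.6 CPM in KO cDC2 (log2 fold change 2.23, SE 0.25, adjusted p = 7.90e-05). Its log2 fold change in WT was 2.21.

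Under the same rule, the largest differences in favour of KO cDC2 were in genes with low levels in KO cDC1. Mmp9, a gelatinase, was at 0.637, 3.08 and 3.97 CPM in KO cDC1 and 155, 78.7 and 91.2 CPM in KO cDC2 (log2 fold change -5.40, SE 0.56, adjusted p = 4.11e-05). Sucnr1, the succinate receptor, was at 0.358, 1.895 and 1.11 CPM in KO cDC1 and 16.02, 67.5 and 69.5 CPM in KO cDC2 (log2 fold change -5.50, SE 0.67, adjusted p = 1.40e-04). Ncald, a neuronal calcium sensor, was at 0.716, 1.86 and 1.97 CPM in KO cDC1 and 40.1, 48.4 and 56.1 CPM in KO cDC2 (log2 fold change -4.99, SE 0.46, adjusted p = 1.54e-05). In all 3 KO cDC1 replicate 1 was the lowest library, and the subsets did not overlap. The group further held Hoxc4 (log2 fold change -5.37, adjusted p = 2.17e-04), Ifitm1, an interferon-induced membrane protein (-5.15, adjusted p = 2.44e-04), Klra17, a lectin-like receptor (-5.13, adjusted p = 0.00338), and Ryr3, a calcium release channel (-5.06, adjusted p = 0.00213). Klra17 was at 216, 19.8 and 22.4 CPM in the KO cDC2 libraries, so that replicate 1 carried most of its level. Mapk12, a p38 kinase, had the largest fold change of these (log2 fold change -5.97, SE 1.26, adjusted p = 0.0063), but it was at 1.56, 25.01 and 27.5 CPM in KO cDC2 and did not pass in limma-voom (adjusted p = 0.129).

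By level per kilobase, the genes at least 4-fold higher in KO cDC2 were led by calcium-binding S100 proteins. Mean RPKM in KO cDC2 was 7599 for S100a4 and 1500.0 for S100a6, 998 for Mdh2, the mitochondrial malate dehydrogenase, 825 for Cd7 and 509.7 for Ccrl2, a chemerin-binding receptor. S100a4 was at 206, 185 and 206 CPM in KO cDC1 and 1431, 5541 and 4403 CPM in KO cDC2 (log2 fold change -4.25, SE 0.43, adjusted p = 3.07e-05). Its KO cDC2 replicate 1 stood well below the other cDC2 libraries and still above all cDC1 libraries.

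**Figure D3:**
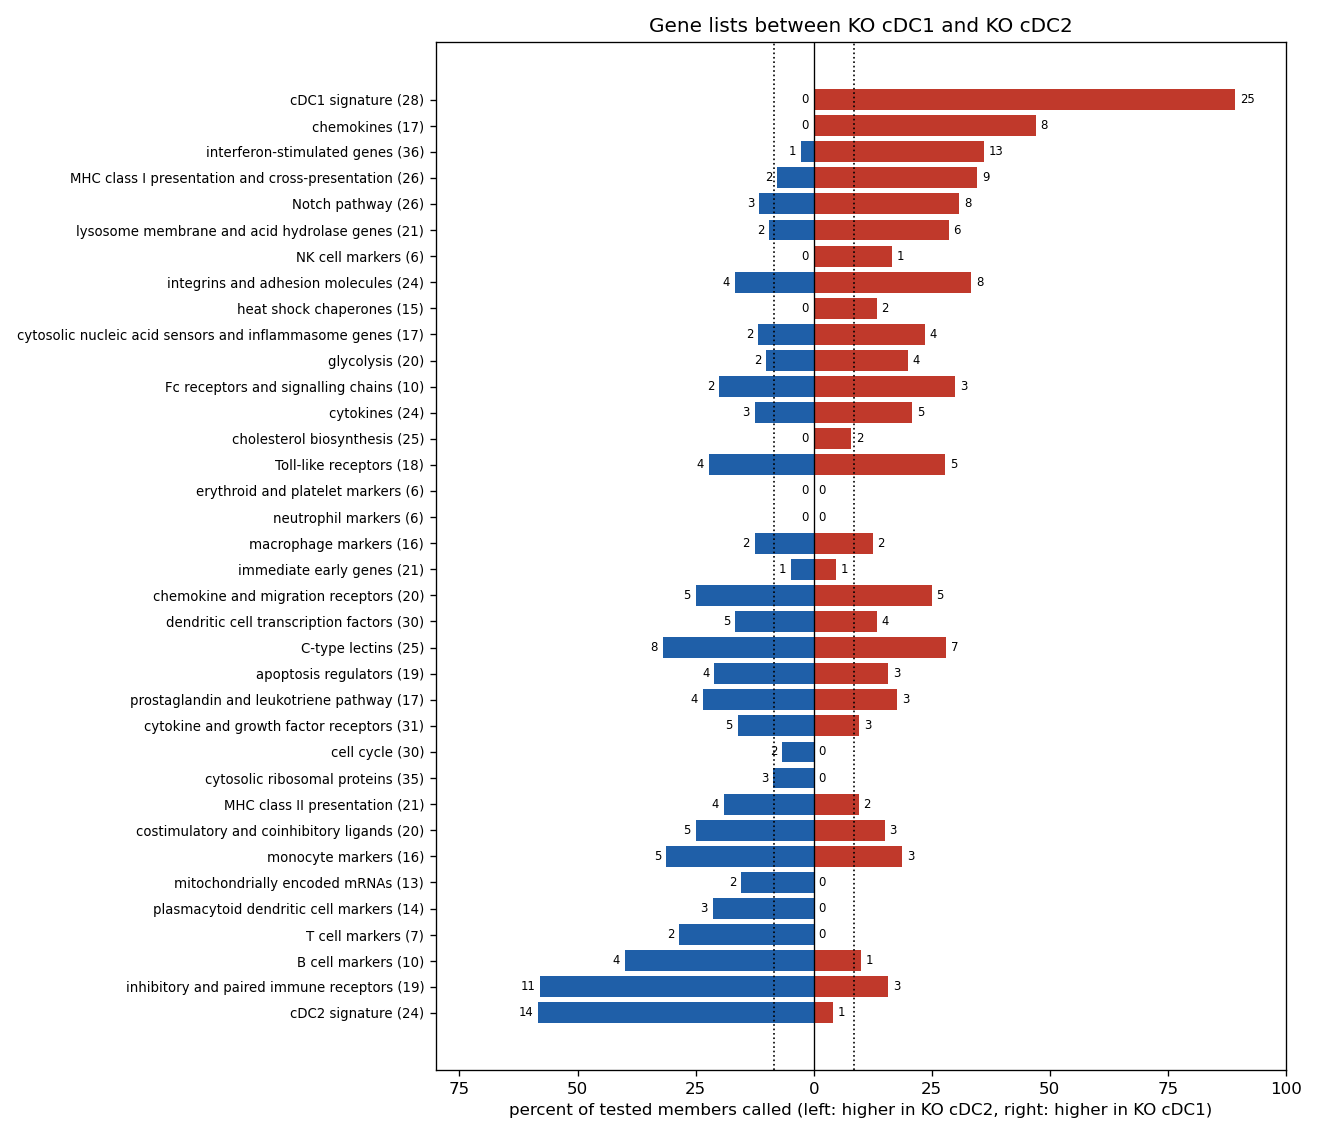
Share of the tested members of each gene list that was higher in KO cDC1 (red, to the right) or higher in KO cDC2 (blue, to the left), with the number of genes beside each bar, the number tested in parentheses, and dotted lines at the shares of all genes tested, 8.45% and 8.43%. The cDC1 signature reaches 25 of 28 to the right, and the cDC2 signature and the paired immune receptors reach 14 of 24 and 11 of 19 to the left.

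Among 30 transcription factors of dendritic cells, 4 were higher in KO cDC1 and 5 in KO cDC2, and 21 did not pass. Of all genes tested, 8.45% were higher in KO cDC1 and 8.43% in KO cDC2. Besides Irf8, Irf4 and Tbx21, Id2, the inhibitor of E proteins, was at 925, 911 and 923 CPM in KO cDC1 and 119.6, 311 and 316 CPM in KO cDC2 (log2 fold change 1.89, SE 0.32, adjusted p = 0.00161), lowest in KO cDC2 replicate 1. Zeb2, a repressor that restrains cDC1 fate, was at 10.03, 12.6 and 11.5 CPM in KO cDC1 and 40.8, 44.03 and 40.6 CPM in KO cDC2 (log2 fold change -1.88, adjusted p = 0.0167), and its call was lost with the mouse pool as a block (adjusted p = 0.0869) and without KO cDC1 replicate 1, 2 or 3 or KO cDC2 replicate 2 (adjusted p = 0.0533 to 0.0719). Klf4, needed for part of the cDC2, was at 297, 372 and 325 CPM in KO cDC1 and 573, 539.8 and 518 CPM in KO cDC2 (log2 fold change -0.71, adjusted p = 0.193). The 3 libraries of each subset did not overlap for Zeb2 or Klf4. Of the list, the number higher in KO cDC1 was 7 without WT cDC1 replicate 1, and that higher in KO cDC2 was 3 without KO cDC1 replicate 1, 2 or 3 or KO cDC2 replicate 2 and 8 without WT cDC1 replicate 1.

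Of 26 Notch pathway genes tested, 8 were higher in KO cDC1 and 3 in KO cDC2. Those higher in cDC2 were Esam, Dtx1 and Nrarp, a Notch target and feedback regulator, which was at 0.358, 0.316 and 0.573 CPM in KO cDC1 and 3.68, 3.501 and 2.94 CPM in KO cDC2 (log2 fold change -3.01, SE 0.39, adjusted p = 2.23e-04). Notch2 itself was at 315, 302 and 297 CPM in KO cDC1 and 207, 217 and 227 CPM in KO cDC2 (log2 fold change 0.49, adjusted p = 0.478). Dtx4, a relative of Dtx1, went the other way, at 17.3, 17.6 and 17.9 CPM in KO cDC1 and 6.09, 6.16 and 5.04 CPM in KO cDC2 (log2 fold change 1.61, SE 0.23, adjusted p = 5.08e-04). In KO cDC1 the higher genes numbered 2 without KO cDC2 replicate 2 or 3, 3 without KO cDC1 replicate 2, and 4 without KO cDC1 replicate 1 or 3, and those higher in KO cDC2 numbered 5 without WT cDC1 replicate 1.

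Pathogen sensors divided between the subsets. Of 18 Toll-like receptor genes, 5 were higher in KO cDC1 and 4 in KO cDC2. Tlr11 and Tlr12, the receptors for profilin of Toxoplasma, were on the cDC1 side with Tlr3. Tlr11 was at 239, 204 and 196 CPM in KO cDC1 and 25.3, 9.495 and 10.3 CPM in KO cDC2 (log2 fold change 3.82, SE 0.35, adjusted p = 1.54e-05). Tlr12 was at 98.7, 65.97 and 64.6 CPM in KO cDC1 and 7.38, 3.25 and 2.22 CPM in KO cDC2 (log2 fold change 4.15, SE 0.66, adjusted p = 9.96e-04). Tlr7, the endosomal receptor for single-stranded RNA, was on the cDC2 side at 3.46, 3.95 and 2.66 CPM in KO cDC1 and 98.6, 18.4 and 19.1 CPM in KO cDC2 (log2 fold change -3.76, SE 0.63, adjusted p = 0.00135). KO cDC2 replicate 1 was the highest cDC2 library for each of these 3. Tlr1, a partner of Tlr2, was at 40.6, 30.7 and 31.8 CPM in KO cDC1 and 94.96, 59.7 and 69.3 CPM in KO cDC2 (log2 fold change -1.12 in KO and -3.63 in WT; the difference was 2.51, SE 0.30, adjusted p = 0.00118).

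Of 17 genes for cytosolic nucleic acid sensors and inflammasomes, 4 were higher in KO cDC1 and 2 in KO cDC2. The former count was 2 without KO cDC1 replicate 2 or 3 or KO cDC2 replicate 2 or 3, and the latter 1 without KO cDC1 replicate 1, 2 or 3 or KO cDC2 replicate 1 and 4 without WT cDC1 replicate 1, and 1 with the mouse pool as a block. Ifi205 was at 984, 1026 and 1035 CPM in KO cDC1 and 15.6, 8.599 and 7.51 CPM in KO cDC2 (log2 fold change 6.58, SE 0.57, adjusted p = 9.62e-06). Its neighbour in the p200 family, Ifi204, was at 82.5, 104 and 109.6 CPM in KO cDC1 and 7.93, 8.49 and 9.74 CPM in KO cDC2 (log2 fold change 3.50, SE 0.35, adjusted p = 2.89e-05). These genes are near-identical in stretches, so reads could be split between them. Nod1, a sensor of bacterial cell wall, was even within each subset and higher in cDC2, at 36.8, 33.4 and 36.3 CPM in KO cDC1 and 137, 144 and 131 CPM in KO cDC2 (log2 fold change -1.95, SE 0.21, adjusted p = 4.73e-05). Nlrc4, an inflammasome scaffold, was at 19.4, 19.3 and 18.4 CPM in KO cDC1 and 19.7, 28.9 and 34.1 CPM in KO cDC2 (log2 fold change -0.53, adjusted p = 0.198), with ranges that were close and did not overlap. In WT it was higher in cDC2 (log2 fold change -2.70), and the difference was 2.17, SE 0.39, adjusted p = 0.0132, a call lost without WT cDC1 replicate 2 (adjusted p = 0.0514).

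C-type lectins, receptors for sugars and for signals of cell damage, differed in 15 of 25 genes, 7 higher in KO cDC1 and 8 higher in KO cDC2. The number of these genes higher in KO cDC2 was 5 without KO cDC2 replicate 3. In WT the counts were 4 and 15, with median log2 fold changes of -3.12 in WT and -0.47 in KO. Klrd1, which encodes CD94, was at 29.4, 20.2 and 19.6 CPM in KO cDC1 and 148, 188 and 190.2 CPM in KO cDC2 (log2 fold change -2.93 in KO and -4.97 in WT; the difference was 2.05, SE 0.29, adjusted p = 0.00325). Ly75, the endocytic receptor DEC-205, was on the cDC1 side at 167, 130.1 and 128 CPM in KO cDC1 and 16.95, 15.5 and 14.1 CPM in KO cDC2 (log2 fold change 3.19, SE 0.44, adjusted p = 3.62e-04). Clec4b1 was level between the KO subsets apart from KO cDC2 replicate 1, at 86.02, 77.4 and 86.4 CPM in KO cDC1 and 14.02, 79.6 and 73.6 CPM in KO cDC2 (log2 fold change 0.58, adjusted p = 0.524). Clec4b1 was at 1.0997, 1.17 and 1.16 CPM in WT cDC1 and 70.7, 16.3 and 24.05 CPM in WT cDC2, and the difference was 5.59, SE 0.90, adjusted p = 0.00668, a call lost in limma-voom (adjusted p = 0.0747). Clec7a, the beta-glucan receptor dectin-1, was at 332, 292 and 294 CPM in KO cDC1 and 538, 382 and 351 CPM in KO cDC2 (log2 fold change -0.47, adjusted p = 0.495). Of the 25 lectins, 9 had a subset difference that differed between genotypes, beside 1.42% of all genes.

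Of 10 Fc receptors and their signalling chains, 3 were higher in KO cDC1 and 2 in KO cDC2, the latter count being 0 without KO cDC1 replicate 1, 2 or 3 or KO cDC2 replicate 2 or 3. Fcgr2b, the inhibitory Fc receptor, was at 327, 309 and 332 CPM in KO cDC1 and 38.1, 53.8 and 53.7 CPM in KO cDC2 (log2 fold change 2.73, SE 0.27, adjusted p = 2.84e-05). Between the WT subsets it did not pass, at 55.3, 59.4 and 54.1 CPM in WT cDC1 and 66.9, 38.4 and 31.97 CPM in WT cDC2 (log2 fold change 0.30, adjusted p = 0.464), and the difference was 2.44, SE 0.37, adjusted p = 0.00431. The KO cDC1 libraries stood far above the other 9. Fcer1g, the signalling chain shared by activating Fc receptors, was at 424, 373 and 416 CPM in KO cDC1 and 374, 686 and 639 CPM in KO cDC2 (log2 fold change -0.48, adjusted p = 0.245). In WT, Fcer1g was at 21.7, 29.2 and 33.4 CPM in WT cDC1 and 670.4, 456 and 430.4 CPM in WT cDC2. The difference between genotypes was 3.72, SE 0.40, adjusted p = 8.42e-04. In the libraries numbered 2 and 3, where 6596 of 13415 genes were called, Fcer1g was called higher in KO cDC2.

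Of 19 paired immune receptors 11 were higher in KO cDC2 and 3 in KO cDC1. The signal regulatory proteins Sirpb1a, Sirpb1b and Sirpb1c, which pair with DAP12, are near-copies of each other, and reads may have been split between them. Sirpb1c was at 5.73, 6.44 and 7.66 CPM in KO cDC1 and 126, 129 and 127 CPM in KO cDC2 (log2 fold change -4.27, SE 0.24, adjusted p = 8.13e-07). Sirpb1a was at 15.0004, 19.2 and 23.7 CPM in KO cDC1 and 341, 483 and 448 CPM in KO cDC2 (log2 fold change -4.46, SE 0.28, adjusted p = 1.57e-06). Pira2, an activating receptor for MHC class I, was at 8.79, 9.44 and 8.93 CPM in KO cDC1 and 39.1, 52.1 and 48.6 CPM in KO cDC2 (log2 fold change -2.36, SE 0.19, adjusted p = 6.76e-06). Lair1, the inhibitory collagen receptor, was at 79.8, 77.9 and 86.1 CPM in KO cDC1 and 185, 248 and 234 CPM in KO cDC2 (log2 fold change -1.45 in KO and -3.49 in WT; the difference was 2.04, SE 0.31, adjusted p = 0.00419). The KO subsets did not overlap for any of these 4 genes. Cd300a, an inhibitory receptor for phosphatidylserine, was at 359, 297 and 309 CPM in KO cDC1 and 362, 646 and 652 CPM in KO cDC2 (log2 fold change -0.78, adjusted p = 0.0511), and passed in the fit of the 6 KO libraries. In WT its log2 fold change was -2.79, and the adjusted p of the difference was 0.0127, against 0.0587 with an offset for gene length and 0.102 with the pool blocked.

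The machinery of MHC class I presentation and cross-presentation was higher in KO cDC1 in 9 of 26 genes and in KO cDC2 in 2. Tap1, a subunit of the peptide transporter, was at 709, 599.7 and 624 CPM in KO cDC1 and 363, 182 and 192 CPM in KO cDC2 (log2 fold change 1.39, SE 0.28, adjusted p = 0.00499). Tapbpl, a peptide editor, was at 96.7, 101.3 and 102 CPM in KO cDC1 and 46.4, 42.4 and 43.2 CPM in KO cDC2 (log2 fold change 1.19, SE 0.17, adjusted p = 4.06e-04). Pdia3, a disulphide isomerase of the loading complex, was at 1271, 1359.7 and 1414 CPM in KO cDC1 and 599, 567 and 596 CPM in KO cDC2 (log2 fold change 1.20, SE 0.23, adjusted p = 0.00299). For all 3 genes every cDC1 library was above every cDC2 library. As for the genes higher in KO cDC1, there were 4 without KO cDC1 replicate 1 or 3 or KO cDC2 replicate 2 or 3 and 5 without KO cDC1 replicate 2, and those higher in KO cDC2 numbered 1 without KO cDC1 replicate 1, 2 or 3 or KO cDC2 replicate 2 or 3, and 1 with the mouse pool as a block.

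Of 21 MHC class II presentation genes, 2 were higher in KO cDC1 and 4 in KO cDC2. Ctse, an endosomal protease, was at 19.1, 19.2 and 20.2 CPM in KO cDC1 and 1.12, 1.597 and 1.47 CPM in KO cDC2 (log2 fold change 3.80, SE 0.30, adjusted p = 5.83e-06), on the cDC1 side with Cst3. H2-DMb2, a chain of the peptide exchange factor H2-M, was on the cDC2 side at 170.1, 142 and 157 CPM in KO cDC1 and 415, 455 and 468 CPM in KO cDC2 (log2 fold change -1.51, SE 0.19, adjusted p = 1.45e-04). Ctsd, an aspartic protease, was on the same side at 30.1, 43.6 and 47.5 CPM in KO cDC1 and 113, 118 and 126 CPM in KO cDC2 (log2 fold change -1.56, SE 0.30, adjusted p = 0.0038). The summed level of the 21 genes was 73645, 64678 and 70616 CPM in KO cDC1 and 78113, 53151 and 53952 CPM in KO cDC2, so the subsets overlapped in this sum. Those higher in KO cDC2 numbered 2 without KO cDC1 replicate 2 or 3 and 7 without WT cDC1 replicate 1.

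Chemokine genes were higher in KO cDC1 in 8 of 17 cases and in KO cDC2 in none, with a median log2 fold change of 1.19. The WT counts were 5 and 4. Cxcl9, which draws CXCR3+ T cells, was at 314, 277 and 269.6 CPM in KO cDC1 and 17.8, 8.37 and 9.53 CPM in KO cDC2 (log2 fold change 4.59, SE 0.47, adjusted p = 3.56e-05). Cxcl16, the ligand of CXCR6, was at 306, 278 and 275 CPM in KO cDC1 and 79.2, 78.2 and 72.2 CPM in KO cDC2 (log2 fold change 1.90, SE 0.17, adjusted p = 1.30e-05). Ccl22, the ligand of CCR4, was at 167, 104 and 102 CPM in KO cDC1 and 6.39, 10.4 and 14.4 CPM in KO cDC2 (log2 fold change 3.58, SE 0.60, adjusted p = 0.00142). All cDC1 libraries of these genes exceeded all cDC2 libraries. Ccl6 was at 379.9, 299 and 329.9 CPM in KO cDC1 and 84.7, 118 and 127 CPM in KO cDC2 (log2 fold change 1.61, SE 0.30, adjusted p = 0.00261). In WT, Ccl6 was at 43.8, 67.8 and 81.9 CPM in WT cDC1 and 155, 95.6 and 82.2 CPM in WT cDC2. The difference between genotypes was 2.40, SE 0.41, adjusted p = 0.0106, or adjusted p = 0.122 with the mouse pool as a block. Its close relative Ccl9 was at 159, 144 and 139 CPM in KO cDC1 and 65.9, 199 and 185 CPM in KO cDC2 (log2 fold change -0.03, adjusted p = 0.973). In WT, Ccl9 was at 4.62, 3.88 and 3.296 CPM in WT cDC1 and 205, 77.8 and 89.3 CPM in WT cDC2, and the difference was 4.95, SE 0.62, adjusted p = 0.00154. Ccl9 was lowest among the KO libraries in KO cDC2 replicate 1. Of the list, the number higher in KO cDC1 was 5 without KO cDC1 replicate 1 or KO cDC2 replicate 3, and that higher in KO cDC2 was 1 without KO cDC2 replicate 1.

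Cytokine genes were higher in KO cDC1 in 5 of 24 cases and in KO cDC2 in 3. Il12b, a subunit of interleukin-12, was at 60.8, 68.02 and 54.8 CPM in KO cDC1 and 4.64, 6.47 and 7.97 CPM in KO cDC2 (log2 fold change 3.27, SE 0.63, adjusted p = 0.0037). Il15, which sustains NK and memory CD8+ T cells, was at 21.1, 16.3 and 16.1 CPM in KO cDC1 and 4.99, 7.002 and 6.34 CPM in KO cDC2 (log2 fold change 1.54, SE 0.24, adjusted p = 7.09e-04). Ltb, which encodes lymphotoxin β, was on the cDC2 side at 125, 115 and 128 CPM in KO cDC1 and 374, 462 and 442 CPM in KO cDC2 (log2 fold change -1.80 in KO and -4.10 in WT; the difference was 2.30, SE 0.31, adjusted p = 0.00189). All 3 had groups that did not overlap. In KO cDC1 the higher genes numbered 2 without KO cDC2 replicate 2 or 3 and 3 without KO cDC1 replicate 1, and those higher in KO cDC2 numbered 1 without KO cDC1 replicate 1, 2 or 3.

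Among 31 cytokine and growth factor receptors tested, 3 were higher in KO cDC1 and 5 in KO cDC2, beside 8.45% and 8.43% of all genes. The former count was 1 without KO cDC2 replicate 3, 5 without WT cDC2 replicate 1, 6 without KO cDC2 replicate 1, and 7 without WT cDC1 replicate 1. Il12rb1, a subunit of the interleukin-12 receptor, was at 7.799, 8.01 and 8.72 CPM in KO cDC1 and 0.0549, 0.224 and 0.042 CPM in KO cDC2 (log2 fold change 6.13, SE 0.70, adjusted p = 7.90e-05). In WT, Il12rb1 had only 4 reads over the cDC1 libraries and 1 over the cDC2 libraries. The test of its difference between genotypes did not call it (adjusted p = 0.628). Csf1r, the receptor of macrophage colony-stimulating factor, was on the cDC2 side at 25.9, 37.8 and 39.6 CPM in KO cDC1 and 320.1, 138 and 143 CPM in KO cDC2 (log2 fold change -2.54, SE 0.35, adjusted p = 3.71e-04). Il2rg, the common cytokine receptor chain, was at 100.1, 84.1 and 96.4 CPM in KO cDC1 and 239, 164 and 179 CPM in KO cDC2 (log2 fold change -1.05, SE 0.22, adjusted p = 0.00652).

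Of 20 chemokine and migration receptors, 5 were higher in KO cDC1 and 5 in KO cDC2, the former count being 3 without KO cDC1 replicate 1 or KO cDC2 replicate 2 or 3. Cxcr3 stood beside Xcr1, at 56.4, 39.2 and 44.8 CPM in KO cDC1 and 1.01, 0.616 and 1.34 CPM in KO cDC2 (log2 fold change 5.57, SE 0.54, adjusted p = 2.24e-05). Ccr6, the receptor of CCL20, was on the cDC2 side at 1.35, 2.21 and 2.01 CPM in KO cDC1 and 36.1, 34.6 and 38.5 CPM in KO cDC2 (log2 fold change -4.29, SE 0.40, adjusted p = 1.64e-05). Ccrl2 was at 158, 149 and 150.0 CPM in KO cDC1 and 779, 1208 and 1239 CPM in KO cDC2 (log2 fold change -2.82, SE 0.23, adjusted p = 5.83e-06). Among 24 integrins and adhesion molecules 8 were higher in KO cDC1 and 4 in KO cDC2, the former count being 5 without KO cDC1 replicate 1, 2 or 3 or KO cDC2 replicate 2 or 3. Itgae, which encodes CD103, was at 10.1, 11.3 and 11.1 CPM in KO cDC1 and 0.0823, 0.336 and 0.462 CPM in KO cDC2 (log2 fold change 5.25, SE 0.77, adjusted p = 5.59e-04). Itga8, the α8 chain, was at 65.02, 61.5 and 58.1 CPM in KO cDC1 and 2.66, 1.06 and 1.301 CPM in KO cDC2 (log2 fold change 5.19, SE 0.69, adjusted p = 2.56e-04). Itgb3, the β3 integrin chain, was on the cDC2 side at 9.75, 10.9 and 10.7 CPM in KO cDC1 and 60.3, 49.2 and 61.7 CPM in KO cDC2 (log2 fold change -2.45 in KO and -5.43 in WT; the difference was 2.98, SE 0.48, adjusted p = 0.00657, a call lost in limma-voom with adjusted p = 0.0805). In none of these 6 genes did the subsets overlap. Of 20 costimulatory and coinhibitory ligands 3 were higher in KO cDC1 and 5 in KO cDC2. Pdcd1lg2, which encodes PD-L2, was at 11.2, 6.63 and 7.002 CPM in KO cDC1 and 42.8, 46.9 and 47.3 CPM in KO cDC2 (log2 fold change -2.46, SE 0.26, adjusted p = 4.32e-05). Havcr2, which encodes TIM-3, was on the cDC1 side at 293, 353 and 354 CPM in KO cDC1 and 186, 167 and 165 CPM in KO cDC2 (log2 fold change 0.95, SE 0.20, adjusted p = 0.00606). The count of ligands higher in KO cDC1 was 5 without WT cDC1 replicate 1, and that higher in KO cDC2 was 3 without KO cDC1 replicate 1, 2 or 3.

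More interferon-stimulated genes were higher in cDC1 in KO, and more were higher in cDC2 in WT. Of 36 such genes, 13 were higher in KO cDC1 and 1 in KO cDC2, with a median log2 fold change of 0.68. Between the WT subsets 3 were higher in cDC1 and 19 in cDC2, with a median of -0.89. The subset difference differed between genotypes in 8 of the 36, beside 1.42% of all genes. Their summed level was 2542, 2836 and 2882 CPM in KO cDC1 and 1765, 1634 and 1522 CPM in KO cDC2, with no overlap. In WT it was 1371, 1714 and 1659 CPM in cDC1 and 1436, 2434 and 2656 CPM in cDC2, so that the KO cDC1 libraries were above all WT cDC1 libraries. Without KO cDC2 replicate 1, 14 were higher in KO cDC1. The number of these genes higher in KO cDC2 was 0 without KO cDC1 replicate 1, 2 or 3 or KO cDC2 replicate 1, 2 or 3 and 2 without WT cDC1 replicate 1, and 2 with the mouse pool as a block.

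Gbp2, a guanylate-binding protein that attacks pathogen vacuoles, was at 134, 119 and 126 CPM in KO cDC1 and 35.3, 31.8 and 38.6 CPM in KO cDC2 (log2 fold change 1.84, SE 0.19, adjusted p = 4.27e-05). In WT, Gbp2 was at 27.4, 26.2 and 25.1 CPM in WT cDC1 and 32.2, 40.5 and 48.3 CPM in WT cDC2. There cDC2 was the higher by a call near the threshold (log2 fold change -0.62, adjusted p = 0.0347). The difference of Gbp2 between genotypes was 2.46, SE 0.27, adjusted p = 8.42e-04. Ifi203, of the p200 family, was at 209, 199 and 183 CPM in KO cDC1 and 64.3, 35.2 and 35.8 CPM in KO cDC2. In WT, Ifi203 was at 20.7, 11.4 and 14.2 CPM in WT cDC1 and 43.5, 53.6 and 38.8 CPM in WT cDC2. The difference of Ifi203 between genotypes was 3.68, SE 0.41, adjusted p = 8.42e-04. Oas3, which makes the activator of RNase L, was at 146, 154 and 154 CPM in KO cDC1 and 21.01, 33.9 and 42.2 CPM in KO cDC2. In WT, Oas3 was at 3.46, 1.43 and 2.49 CPM in WT cDC1 and 38.8, 14.5 and 8.65 CPM in WT cDC2. The difference of Oas3 between genotypes was 5.30, SE 0.70, adjusted p = 0.00189. For all 3 genes KO cDC1 was the highest and WT cDC1 the lowest of the 4 groups. Reads of Ifi203 and of Oas1a may be shared with close relatives. Iigp1, a GTPase directed at vacuoles, was higher in cDC1 at 11.2, 8.76 and 10.9 CPM in KO cDC1 and 0.411, 0.924 and 0.923 CPM in KO cDC2 (log2 fold change 3.78, SE 0.48, adjusted p = 1.70e-04). Ifi44 was likewise higher at 18.8, 33.1 and 32.9 CPM in KO cDC1 and 1.95, 2.24 and 1.97 CPM in KO cDC2 (log2 fold change 3.78, SE 0.54, adjusted p = 4.64e-04). Oas1a, at 32.3, 45.6 and 48.2 CPM in KO cDC1 and 66.2, 59.1 and 60.6 CPM in KO cDC2 (log2 fold change -0.56, adjusted p = 0.253), did not pass between the KO subsets, and its log2 fold change in WT was -3.67 (the difference was 3.11, SE 0.46, adjusted p = 0.00419).

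The stretches before the start sites of 3 genes are shown because they hold the letters of the interferon-stimulated response element, to which interferon regulatory factors bind. They run 5′ to 3′ on the strand of the gene, for the 250 bases before the start site in RefSeq's annotation of GRCm38.p6, and capitals mark each match of that element (GAAA, any 2 bases, GAAA) on either strand. Gbp2 lies on the plus strand (chr3:142620413-142620662), Oas3 on the minus strand (chr5:120777660-120777909) and Cybb, a gene of the phagocyte oxidase described with the genotype comparison, on the minus strand (chrX:9469325-9469574).
Gbp2: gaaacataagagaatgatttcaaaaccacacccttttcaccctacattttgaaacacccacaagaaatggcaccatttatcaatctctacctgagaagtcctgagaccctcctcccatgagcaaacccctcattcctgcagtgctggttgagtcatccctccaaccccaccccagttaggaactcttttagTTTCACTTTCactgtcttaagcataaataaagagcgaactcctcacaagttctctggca
Oas3: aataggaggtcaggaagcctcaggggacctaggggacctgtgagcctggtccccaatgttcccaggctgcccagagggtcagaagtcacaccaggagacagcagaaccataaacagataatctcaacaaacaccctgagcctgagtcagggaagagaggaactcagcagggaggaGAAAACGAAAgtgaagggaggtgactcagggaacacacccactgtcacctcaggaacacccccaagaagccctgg
Cybb: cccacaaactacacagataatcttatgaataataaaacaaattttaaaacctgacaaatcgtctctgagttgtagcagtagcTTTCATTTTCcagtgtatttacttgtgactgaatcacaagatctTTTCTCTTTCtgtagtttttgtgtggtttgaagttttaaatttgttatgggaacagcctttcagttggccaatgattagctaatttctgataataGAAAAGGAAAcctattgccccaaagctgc
The element was present once in Gbp2, once in Oas3 and 3 times in Cybb. The 7 motifs below were searched on both strands in windows of 250 bases before to 50 after the start: the interferon-stimulated element, EICE (GGAA, any 2 bases, GAAA), AP-1 (TGANTCA), AICE (GAAA directly before AP-1), RUNX (TGTGGTT), an E-box (CAGCTG) and RBPJ (TGGGAA). Over all 32851 windows the interferon-stimulated element occurred in 3.44%, EICE in 2.72%, AP-1 in 7.81%, AICE in 0.125%, RUNX in 5.27%, the E-box in 16.3% and RBPJ in 25.6%. Of the genes tested, 10086 of 13415 had a window, and there the shares in the same order were 4.01%, 2.94%, 6.18%, 0.0991%, 4.72%, 17.4% and 26.4%. Of the 21 genes with opposite subset differences in KO and WT, 18 had a window. Of these 18, 3 held the interferon-stimulated element, Gbp2 and Oas3 among them. EICE was held by 1, AP-1 by 6, AICE by 0, RUNX by 2, the E-box by 1 and RBPJ by 4. A match of letters is not evidence of binding.

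Of 21 lysosome membrane and acid hydrolase genes, 6 were higher in KO cDC1 and 2 in KO cDC2, the latter count being 0 without KO cDC1 replicate 2 or 3 and 1 without KO cDC1 replicate 1 or KO cDC2 replicate 1 or 2, and 1 with the mouse pool as a block. Gusb, β-glucuronidase, was at 489, 407 and 402 CPM in KO cDC1 and 100.4, 63.5 and 63.04 CPM in KO cDC2 (log2 fold change 2.52, SE 0.32, adjusted p = 1.74e-04), with KO cDC2 replicate 1 the highest of the cDC2 libraries. The log2 fold change of Naaa, an acid amidase, was 5.22. Among 20 glycolysis genes 4 were higher in KO cDC1 and 2 in KO cDC2. Hk3, a hexokinase, was at 66.8, 66.96 and 65.3 CPM in KO cDC1 and 5.49, 1.79 and 2.31 CPM in KO cDC2 (log2 fold change 4.37, SE 0.44, adjusted p = 2.82e-05). Slc16a3, a lactate exporter, was on the cDC2 side at 5.85, 4.54 and 4.67 CPM in KO cDC1 and 29.2, 24.1 and 24.6 CPM in KO cDC2 (log2 fold change -2.37, SE 0.28, adjusted p = 1.01e-04). Of 17 genes of prostaglandin and leukotriene pathways, 3 were higher in KO cDC1 and 4 in KO cDC2, the latter count being 2 without KO cDC1 replicate 1, 2 or 3 or KO cDC2 replicate 2 or 3. Tbxas1, thromboxane synthase, was at 62.7, 45.6 and 51.2 CPM in KO cDC1 and 7.13, 4.85 and 5.498 CPM in KO cDC2 (log2 fold change 3.19, SE 0.25, adjusted p = 5.83e-06). Ptgs2, the inducible cyclooxygenase, was on the cDC2 side at 329.7, 275 and 225 CPM in KO cDC1 and 1700.3, 1106 and 1170.2 CPM in KO cDC2 (log2 fold change -2.26, SE 0.42, adjusted p = 0.00286). Cholesterol biosynthesis had 2 of 25 genes called, both higher in KO cDC1. These 2 are 8% of the list, below the 16.9% of all genes called and near the 8.45% higher in KO cDC1. That count was 0 without KO cDC1 replicate 1 or 3 or KO cDC2 replicate 2 or 3, 1 without KO cDC1 replicate 2, WT cDC1 replicate 2 or WT cDC2 replicate 2, and 8 without KO cDC2 replicate 1 or WT cDC1 replicate 1.

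Gene groups that move with RNA quality or handling differed between replicates, and their counts of calls, beside 16.9% of all genes, depended on the libraries. From the libraries numbered 2 and 3, where 6596 of the 13415 genes were called, 13 of 13 mitochondrially encoded mRNAs and 34 of 35 cytosolic ribosomal protein genes were higher in KO cDC2. In those libraries 12 of 15 heat shock chaperones were higher in KO cDC1 and 2 in KO cDC2, and of 30 cell cycle genes 16 were higher in KO cDC1 and 6 in KO cDC2. Of 13 mitochondrially encoded mRNAs 2 were higher in KO cDC2 and none in KO cDC1, with a median log2 fold change of -1.19. Mitochondrial reads were 2.04%, 0.866% and 0.713% of the KO cDC1 libraries and 2.81%, 2.34% and 2.54% of the KO cDC2 libraries. KO cDC1 replicate 1 was thus close to the cDC2 libraries. As for the genes higher in KO cDC2, there were 0 without KO cDC1 replicate 2 or 3, KO cDC2 replicate 1, 2 or 3 or WT cDC2 replicate 2, 1 without WT cDC1 replicate 2 or WT cDC2 replicate 3, 6 without WT cDC1 replicate 1, and 11 without KO cDC1 replicate 1, and 0 with the mouse pool as a block or with an offset for gene length. Of 35 cytosolic ribosomal protein genes 3 were higher in KO cDC2, with a median of -0.82. Their sum was 31733, 27768 and 31929 CPM in KO cDC1 and 28033, 74201 and 64549 CPM in KO cDC2. KO cDC2 replicate 1 thus lay with the cDC1 libraries. Those higher in KO cDC2 numbered 0 without KO cDC1 replicate 1, 2 or 3 or KO cDC2 replicate 2 or 3, 15 without WT cDC1 replicate 1, and 22 without KO cDC2 replicate 1, and 0 with the mouse pool as a block.

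Ribosomal protein genes and mitochondrially encoded genes are short, and the rank correlation of gene length with each library's deviation from the KO mean was 0.200, 0.340 and 0.222 in KO cDC1 and 0.0992, -0.340 and -0.319 in KO cDC2. The part of gene length and replicate 1 in these groups was not tested further.

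Of 15 heat shock chaperones 2 were higher in KO cDC1 and none in KO cDC2. The former count was 1 without KO cDC1 replicate 2 or 3 or KO cDC2 replicate 2 or 3 and 4 without WT cDC2 replicate 1, and the latter 1 without KO cDC2 replicate 1. Hsp90b1, the chaperone of the endoplasmic reticulum, was at 523, 749.8 and 739 CPM in KO cDC1 and 322, 229.8 and 259 CPM in KO cDC2 (log2 fold change 1.31, SE 0.29, adjusted p = 0.00872), lowest in replicate 1 of cDC1. Among 21 immediate early genes, which respond to handling, 1 was higher in each KO subset, Egr1 in cDC1 and Ier3 in cDC2. Of the list, the number higher in KO cDC2 was 0 without KO cDC1 replicate 1, 2 or 3 or KO cDC2 replicate 1 and 2 without WT cDC1 replicate 1. Egr1 was at 1217, 1391 and 1281 CPM in KO cDC1 and 518, 815 and 862 CPM in KO cDC2 (log2 fold change 0.83, SE 0.26, adjusted p = 0.0482), a call that was lost with the mouse pool as a block (adjusted p = 0.0948) and without any 1 of the 6 KO libraries (adjusted p = 0.0783 to 0.15). In WT Egr1 was higher in cDC2 (log2 fold change -1.57), and the difference was 2.39, SE 0.37, adjusted p = 0.00555. Of 30 cell cycle genes 2 were higher in KO cDC2 and none in KO cDC1. The former count was 1 without KO cDC1 replicate 3, and the latter 1 without WT cDC1 replicate 1, 2 without WT cDC2 replicate 1, and 5 without KO cDC2 replicate 1 and 1 with the mouse pool as a block. Ccnd1, cyclin D1, was at 479, 453 and 443 CPM in KO cDC1 and 1513, 947 and 1007 CPM in KO cDC2 (log2 fold change -1.34, SE 0.29, adjusted p = 0.0082). Among 19 apoptosis regulators 3 were higher in KO cDC1 and 4 in KO cDC2. The former count was 0 without KO cDC1 replicate 2 or 3 or KO cDC2 replicate 3, 1 without KO cDC1 replicate 1, KO cDC2 replicate 2, WT cDC1 replicate 2 or WT cDC2 replicate 2, and 5 without KO cDC2 replicate 1 or WT cDC1 replicate 1, and the latter 1 without KO cDC1 replicate 2 or 3 or KO cDC2 replicate 2 or 3 and 2 without KO cDC1 replicate 1. With the mouse pool as a block they were 2 and 1. Bcl2a1b, a survival gene with near-identical copies between which reads could be split, was at 424, 272 and 294 CPM in KO cDC1 and 654, 1363 and 1164 CPM in KO cDC2 (log2 fold change -1.68, SE 0.32, adjusted p = 0.00299).

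Markers of other splenic cells were summed in each KO library. The summed T cell markers were between 5.13 and 8.68 CPM in KO cDC1 and between 20.6 and 25.8 CPM in KO cDC2. Of 7 tested, 2 were higher in cDC2, beside 8.43% of all genes. That count was 1 without KO cDC1 replicate 1, 2 or 3 or KO cDC2 replicate 2. B cell markers summed to 63.1 to 72.7 CPM and 134 to 150 CPM, with 4 of 10 higher in KO cDC2 and 1 in KO cDC1. Cd79b, part of the B cell receptor, was at 4.695, 4.501 and 5.28 CPM in KO cDC1 and 22.8, 23.3 and 19.9 CPM in KO cDC2 (log2 fold change -2.19, SE 0.27, adjusted p = 1.31e-04). Ms4a1, which encodes CD20, went the other way at 56.4, 41.3 and 40.3 CPM in KO cDC1 and 14.6, 9.495 and 8.98 CPM in KO cDC2 (log2 fold change 2.06, SE 0.44, adjusted p = 0.00715). Neutrophil markers summed to 5.97, 7.50 and 12.7 CPM in KO cDC1 and 1.29, 84.3 and 70.4 CPM in KO cDC2, with Elane at 0 in all KO libraries, and none of 6 was called. The neutrophil count higher in KO cDC2 was 2 without KO cDC2 replicate 1. Erythroid and platelet markers summed to 33.0, 94.5 and 108 CPM and to 14.0, 145 and 122 CPM, with none of 6 called. Both lists were lowest in replicate 1 of each subset, in KO and in WT alike.

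The NK cell list summed to 157 to 183 CPM in KO cDC1 and 30.3 to 32.9 CPM in KO cDC2. Klrk1, the NKG2D receptor, made up nearly all of it in KO cDC1 and most of it in KO cDC2. Klrk1 was at 179, 152 and 152 CPM in KO cDC1 and 23.2, 24.2 and 26.7 CPM in KO cDC2 (log2 fold change 2.70, SE 0.31, adjusted p = 7.89e-05). Plasmacytoid dendritic cell markers were higher in KO cDC2 in 3 of 14 genes, beside 8.43% of all genes. Among them Spib was at 10.3, 10.8 and 11.6 CPM in KO cDC1 and 116, 56.4 and 65.1 CPM in KO cDC2 (log2 fold change -2.86, SE 0.36, adjusted p = 1.66e-04). The sums of this list were 210 to 241 CPM in KO cDC1 and 288 to 307 CPM in KO cDC2. Macrophage markers were higher in KO cDC1 in 2 of 16 genes and in KO cDC2 in 2, and their sums were 400 to 484 CPM and 573 to 764 CPM. Cd163, the haemoglobin scavenger receptor, and Timd4, a receptor for phosphatidylserine, were on the cDC1 side. In KO cDC2 the higher genes numbered 1 without KO cDC1 replicate 1, 2 or 3, KO cDC2 replicate 2 or 3 or WT cDC2 replicate 2 and 5 without WT cDC1 replicate 1, and 6 with the mouse pool as a block. Timd4 was at 13.8, 10.1 and 8.35 CPM in KO cDC1 and 0.549, 1.37 and 0.965 CPM in KO cDC2 (log2 fold change 3.48, SE 0.47, adjusted p = 2.88e-04). Adgre1, which encodes F4/80, was on the cDC2 side at 13.5, 18.4 and 18.6 CPM in KO cDC1 and 384, 83.6 and 85.8 CPM in KO cDC2 (log2 fold change -3.45, SE 0.57, adjusted p = 0.00128). Adgre1 was highest in KO cDC2 replicate 1. Monocyte markers were higher in KO cDC1 in 3 of 16 genes and in KO cDC2 in 5. Treml4 was on the cDC1 side (log2 fold change 1.34, adjusted p = 4.4e-04), and Ace and Ms4a4c were on the cDC2 side. Ace, angiotensin-converting enzyme, was at 0.517, 3.59 and 4.05 CPM in KO cDC1 and 63.1, 39.8 and 43.5 CPM in KO cDC2 (log2 fold change -4.16, SE 0.56, adjusted p = 2.61e-04). Ms4a4c was at 62.7, 56.4 and 62.8 CPM in KO cDC1 and 218, 219 and 206 CPM in KO cDC2 (log2 fold change -1.82, SE 0.21, adjusted p = 7.10e-05). The part of such cells in the subset differences was not tested.

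Most subset differences of KO had a counterpart in WT. Of the genes called between the KO subsets, 1500 were called in the same direction between the WT subsets (zfp366+/+), where 2846 of 13415 were called (21.2%). That is 66.3% of the KO calls and 52.7% of the WT calls. The 2 comparisons share no library but share the estimate of the spread. Across the 13415 genes, which are not independent replicates, the 2 log2 fold changes had a Pearson r of 0.756 and a Spearman rho of 0.699. The median absolute log2 fold change of the WT-called genes was 1.77 in WT and 1.13 in KO, and that of the KO-called genes was 1.65 in KO and 1.52 in WT, where each set was chosen on the first of its values.

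The subset difference itself differed between KO and WT in 190 genes (1.42%). Taken with its sign, cDC1 minus cDC2 was larger in KO in 170 of them (1.27%) and smaller in 20 (0.149%). A larger value in this sense includes a narrower difference where cDC2 was the higher subset. With the mouse pool as a block the number of called genes was 116, and from the libraries numbered 2 and 3 it was 5157. It was 119, 113 and 111 without KO cDC1 replicate 1, 2 and 3 in turn, 118 without KO cDC2 replicate 2 or 3, 111 without WT cDC1 replicate 2 and 502 without WT cDC1 replicate 1. With an offset for gene length it was 302. The share of called genes whose signed cDC1 minus cDC2 value was larger in KO was 89.5%. With DESeq2, which called 480 genes, it was 73.5%. It was 73.7% without WT cDC1 replicate 1 and 52.8% from the libraries numbered 2 and 3.

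Of the 190 genes, 72 were higher in cDC2 in WT and not called in KO, and 50 were higher in cDC2 in both, by less in KO. A further 22 were higher in cDC1 in KO only, and 21 were called in opposite directions. In all 170 genes of the larger class the mean CPM of KO cDC1 exceeded that of WT cDC1, and in 154 WT cDC1 had the lowest mean of the 4 groups. The mean of KO cDC2 was above that of WT cDC2 in 66 of the 170. These counts describe genes chosen by that test.

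The first classes, higher in cDC2 in WT, included a gene of the phagocyte oxidase and a matrix protease. Cd72, an inhibitory lectin-like receptor, was at 20.6, 26.9 and 27.9 CPM in KO cDC1 and 41.4, 62.5 and 60.1 CPM in KO cDC2. In WT, Cd72 was at 1.65, 1.38 and 2.02 CPM in WT cDC1 and 55.3, 50.9 and 55.1 CPM in WT cDC2. The difference of Cd72 between genotypes was 3.87, SE 0.33, adjusted p = 1.85e-04. Mmp12, the macrophage elastase, was at 30.8, 30.6 and 27.7 CPM in KO cDC1 and 192, 237 and 242 CPM in KO cDC2. In WT, Mmp12 was at 4.29, 4.34 and 3.58 CPM in WT cDC1 and 252, 205 and 175 CPM in WT cDC2. The difference of Mmp12 between genotypes was 2.78, SE 0.28, adjusted p = 8.42e-04. Cybb, the catalytic chain of the phagocyte oxidase, was at 196, 196 and 194 CPM in KO cDC1 and 606, 299 and 353 CPM in KO cDC2. In WT, Cybb was at 18.6, 15.6 and 15.2 CPM in WT cDC1 and 395, 377 and 299.7 CPM in WT cDC2. The difference of Cybb between genotypes was 3.33, SE 0.37, adjusted p = 8.42e-04. KO cDC1 stood between WT cDC1 and the cDC2 groups for all 3. Ptpro, a receptor tyrosine phosphatase, had log2 fold changes of -0.69 in KO and -4.27 in WT (the difference was 3.58, SE 0.38, adjusted p = 8.42e-04).

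**Figure D4:**
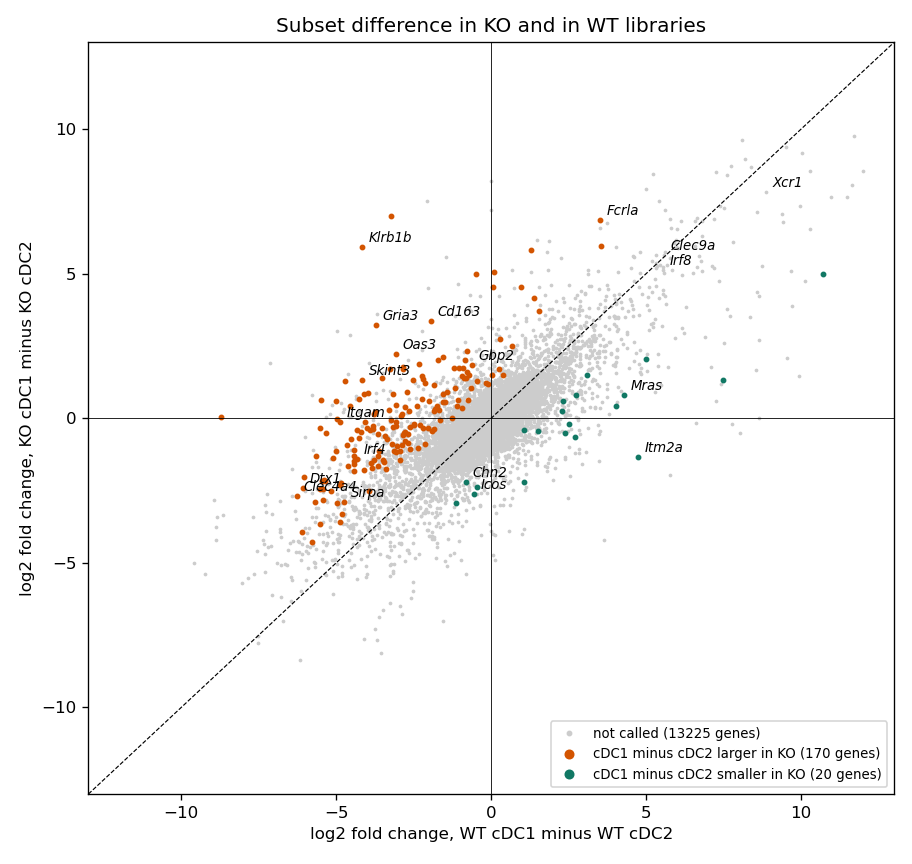
Log2 fold change of cDC1 over cDC2 in KO (y axis) against that in WT (x axis) for the 13415 genes tested. Orange points are the 170 genes whose signed cDC1 minus cDC2 value was larger in KO, and green points the 20 whose value was smaller. The dashed line marks equal differences. The orange points lie above the line, mostly where the WT difference is negative, and Xcr1, Clec9a and Irf8 lie near the line.

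The 21 genes called in opposite directions were all higher in cDC2 in WT and higher in cDC1 in KO. Their WT calls were not followed gene by gene through the alternatives. Those of Klrb1b, Gbp2 and Dusp2 were near the threshold (adjusted p = 0.0411, 0.0347 and 0.0321), and the WT libraries of Klrb1b overlapped. In each of the 21, KO cDC1 had the highest and WT cDC1 the lowest group mean. Besides Gbp2, Ifi203 and Oas3, Skint3, a member of the Skint family of butyrophilin-like proteins, was at 463, 465 and 389 CPM in KO cDC1 and 111, 188 and 228 CPM in KO cDC2 (log2 fold change 1.32, SE 0.31, adjusted p = 0.0122). In WT, Skint3 was at 12.6, 6.89 and 7.98 CPM in WT cDC1 and 221, 146 and 130.1 CPM in WT cDC2. The difference of Skint3 between genotypes was 5.50, SE 0.47, adjusted p = 1.85e-04. Cd163 was at 27.4, 25.4 and 24.6 CPM in KO cDC1 and 3.02, 2.101 and 2.39 CPM in KO cDC2 (log2 fold change 3.36, SE 0.42, adjusted p = 1.70e-04). In WT, Cd163 was at 1.15, 1.38 and 1.56 CPM in WT cDC1 and 2.805, 3.53 and 9.93 CPM in WT cDC2. The difference of Cd163 between genotypes was 5.32, SE 0.60, adjusted p = 8.42e-04. Spn, which encodes CD43, was at 177, 169.6 and 171 CPM in KO cDC1 and 79.3, 58.1 and 65.98 CPM in KO cDC2 (log2 fold change 1.35, SE 0.28, adjusted p = 0.00569). In WT, Spn was at 20.5, 14.7 and 12.95 CPM in WT cDC1 and 109.6, 55.7 and 57.2 CPM in WT cDC2. The difference of Spn between genotypes was 3.56, SE 0.40, adjusted p = 8.42e-04. No KO cDC1 library of these genes was as low as any KO cDC2 library.

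Socs3, the suppressor of cytokine signalling, was in the same class, at 107, 56.2 and 50.2 CPM in KO cDC1 and 24.5, 19.8 and 19.98 CPM in KO cDC2 (log2 fold change 1.73, SE 0.29, adjusted p = 0.00137), and its difference from WT was 2.93, SE 0.41, adjusted p = 0.00272. Dusp2, a nuclear MAP kinase phosphatase, was at 1069, 768 and 774 CPM in KO cDC1 and 262, 266 and 257 CPM in KO cDC2 (log2 fold change 1.73, SE 0.28, adjusted p = 9.98e-04), and its difference from WT was 2.63, SE 0.39, adjusted p = 0.00379. Tnfaip3, the NF-κB inhibitor A20, was at 1296, 740.4 and 678 CPM in KO cDC1 and 455, 441 and 415 CPM in KO cDC2 (log2 fold change 1.05, SE 0.29, adjusted p = 0.027), and its difference from WT was 2.22, SE 0.41, adjusted p = 0.0162, but its KO call was lost without KO cDC1 replicate 1 or KO cDC2 replicate 2 or 3 (adjusted p = 0.0872 to 0.136). With the mouse pool as a block neither its KO call nor its difference passed (adjusted p = 0.0652 and 0.0688). Prdm1, which encodes the repressor Blimp-1, was at 29.05, 27.6 and 23.1 CPM in KO cDC1 and 5.49, 8.23 and 7.81 CPM in KO cDC2 (log2 fold change 1.89, SE 0.47, adjusted p = 0.0165), and its difference from WT was 4.23, SE 0.70, adjusted p = 0.00846, and its KO call was lost without KO cDC1 replicate 1 or 2 or KO cDC2 replicate 2 or 3 (adjusted p = 0.0536 to 0.058). Socs3 and Tnfaip3 were highest in KO cDC1 replicate 1. Gria3, a glutamate receptor subunit, was at 51.4, 67.2 and 66.4 CPM in KO cDC1 and 3.37, 7.79 and 8.56 CPM in KO cDC2 (log2 fold change 3.23, SE 0.53, adjusted p = 0.00126), and its difference from WT was 6.95, SE 0.82, adjusted p = 0.00119. Clec5a, Lifr, Oasl2, Pla2g7, Klra2, Gpr160 and Pea15a, also of this class, each lost the KO call without at least 1 of the KO libraries, with adjusted p-values of up to 0.0675, 0.0565, 0.167, 0.0609, 0.106, 0.168 and 0.101 over the alternatives. With the mouse pool as a block the KO call was lost for Lifr, Oasl2, Klra2, Gpr160 and Pea15a (adjusted p = 0.0552, 0.0868, 0.0811, 0.0841 and 0.085).

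**Figure D5:**
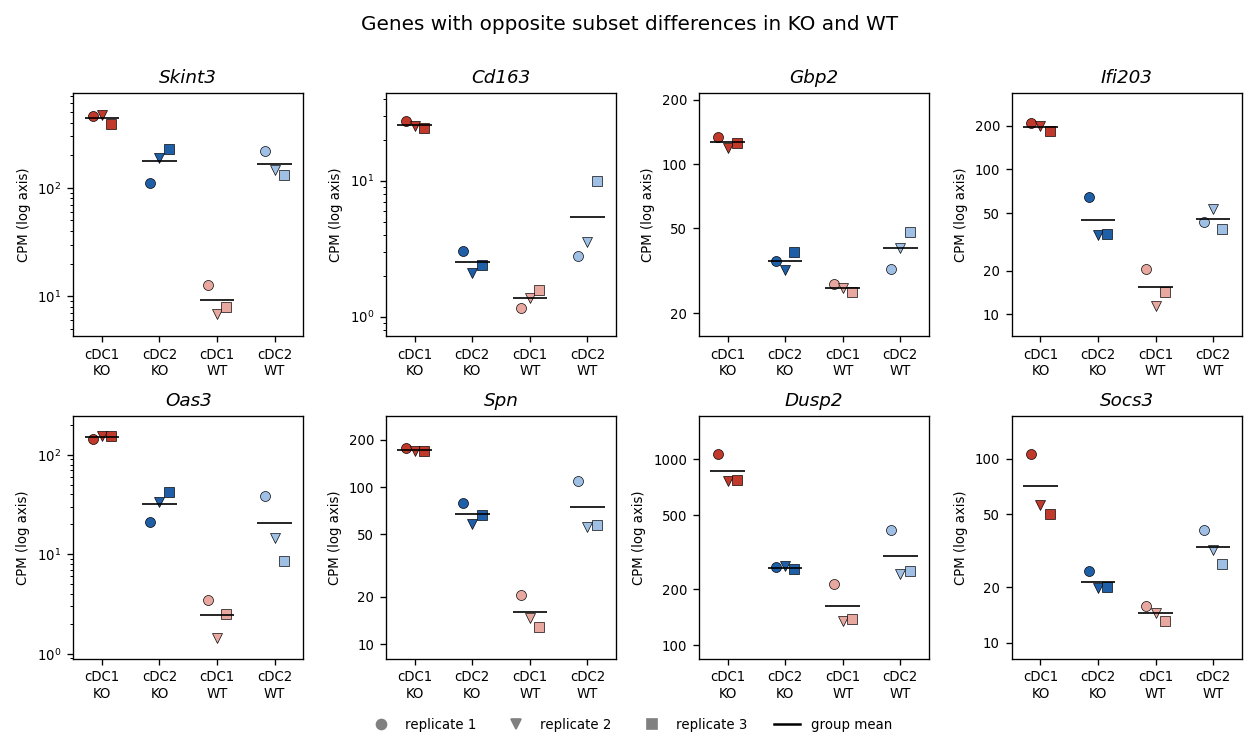
CPM (log axis) in each of the 12 libraries for 8 genes that were higher in cDC1 in KO and higher in cDC2 in WT; symbols mark the replicate, colours the group, and lines the group means. KO cDC1 is the highest and WT cDC1 the lowest group in every panel.

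Among the 20 genes whose signed cDC1 minus cDC2 value was smaller in KO, 11 were higher in cDC1 in WT and not called in KO. A further 4 were higher in cDC1 in both, by less in KO. Another 3 were called higher in cDC2 in KO only, and 2 were higher in cDC2 in both, by more in KO. Mras, a Ras-like GTPase, was at 2.55, 3.16 and 3.73 CPM in KO cDC1 and 2.19, 1.46 and 1.805 CPM in KO cDC2 (log2 fold change 0.79, adjusted p = 0.0969). In WT, Mras was at 22.3, 27.4 and 21.3 CPM in WT cDC1 and 1.16, 1.67 and 0.729 CPM in WT cDC2. The difference of Mras between genotypes was -3.49, SE 0.44, adjusted p = 0.00164. Ubtd2 was at 8.55, 6.36 and 7.82 CPM in KO cDC1 and 7.32, 6.53 and 5.29 CPM in KO cDC2 (log2 fold change 0.25, adjusted p = 0.515). In WT, Ubtd2 was at 29.4, 26.7 and 27.001 CPM in WT cDC1 and 7.15, 4.88 and 4.74 CPM in WT cDC2. The difference of Ubtd2 between genotypes was -2.05, SE 0.34, adjusted p = 0.00812. In both, the WT cDC1 libraries were above all others. Slc11a1, the phagosomal metal transporter NRAMP1, was at 21.1, 19.5 and 22.4 CPM in KO cDC1 and 14.2, 11.1 and 10.6 CPM in KO cDC2. In WT, Slc11a1 was at 96.5, 152 and 149 CPM in WT cDC1 and 15.9, 19.4 and 24.4 CPM in WT cDC2. The difference of Slc11a1 between genotypes was -1.93, SE 0.33, adjusted p = 0.0106. In 16 of the 20 genes WT cDC1 had the highest mean of the 4 groups. Icos, a costimulatory receptor better known in T cells, was higher in KO cDC2 at 5.81, 4.94 and 4.87 CPM in KO cDC1 and 31.5, 31.5 and 33.7 CPM in KO cDC2 (log2 fold change -2.63, SE 0.28, adjusted p = 4.32e-05). In WT, Icos was at 29.4, 15.9 and 15.96 CPM in WT cDC1 and 35.6, 30.7 and 23.7 CPM in WT cDC2. The difference of Icos between genotypes was -2.07, SE 0.37, adjusted p = 0.0136. The call of that difference was lost without KO cDC1 replicate 2 or 3 (adjusted p = 0.0588 and 0.0595). Chn2, a regulator of the GTPase Rac, was higher in cDC2 in both and by more in KO, at 19.9, 23.7 and 23.99 CPM in KO cDC1 and 111, 99.5 and 101.1 CPM in KO cDC2 (log2 fold change -2.20, SE 0.18, adjusted p = 5.87e-06; the difference was -1.39, SE 0.24, adjusted p = 0.0108, or adjusted p = 0.086 with the mouse pool as a block).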

How the data were processed

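RNA-seq counts per gene were deposited for 12 libraries, in 1 table of 27179 genes. The values are whole raw read counts per gene made by the authors with featureCounts on GRCm38/mm10, per the submitters' processing notes; the aligner and the strand setting were not given in the sources used here. Each of the 4 groups, KO cDC1, KO cDC2, WT cDC1 and WT cDC2, held 3 libraries, mapped by title. Gene identifiers were given names from RefSeq tables for 25275 genes and from GENCODE for 18, and the 1886 without a name held 2.22% of reads.

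After filterByExpr, 13415 genes were fitted over all 12 libraries with edgeR 4.0.16 (TMM, quasi-likelihood F-test, R 4.3.3), with 1 coefficient per group, and p-values were adjusted by Benjamini and Hochberg over all genes tested. The contrasts were cDC1 minus cDC2 within KO, within WT, and their difference. CPM values use TMM-scaled totals, RPKM divides these by gene length in the table, and sums over lists include members below the filter. The code was tested on simulated data with known changes. Depth ranged from 11330503 to 36761685 counts, and the sampling error is smallest for abundant genes.

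Genes named are the 6 markers and Zfp366, the 8 largest fold changes each way with a mean of at least 10 CPM and no overlap, the 6 highest RPKM each way at least 4-fold apart, up to 4 members of each of 36 lists by smallest p, and the 8 smallest p each way of the difference, with predicted genes skipped. The rule named 172 genes, not all of which are described, and some genes are not reported here. A further 64, among them Batf3, Nfil3, Wdfy4, Cd207, Itgam, Klf4, Notch2, Nlrc4, Tlr1, Clec7a, Ccl9, Oas1a and most genes of the opposite class, were chosen after their values were seen. The genes, lists and members were chosen with earlier results of these data known.

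The cDC1 and cDC2 libraries of 1 mouse pool come from the same animals, per the labels. Their deviations from the group means correlated at 0.259, 0.143 and 0.144 in KO and at -0.205, -0.111 and -0.068 in WT; KO libraries of different pools correlated at -0.238 to 0.165, those of pools 2 and 3 at 0.102 and 0.165. The design without the pool was kept as the main one, and the pool as a block is an alternative. Others were the KO libraries alone, RLE and upper quartile scaling, no filter, DESeq2 1.42.0, limma-voom 3.58.1, offsets for gene length, each library left out in turn, and the libraries numbered 2 and 3. The last pair was added after seeing the data: the KO libraries without KO cDC2 replicate 1, and the KO libraries with the pool in the model. No statement says that pools were independent beyond their numbers. The p-values of the main design measure the spread between libraries within the 4 groups, estimated over all 12 libraries. They do not measure the spread of the cDC1 minus cDC2 difference between the KO pools.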

Additional observations from a re-analysis of the deposited data

Results flagged for a closer look

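The genes below were called in the test of the difference itself, the KO subset difference against the WT subset difference (edgeR's quasi-likelihood test, adjusted p below 0.05). Each value is the log2 difference, cDC1 minus cDC2 in KO less cDC1 minus cDC2 in WT. They are the genes of the report, its lists and its naming rule, 78 in all. A positive value means that cDC1 stood higher relative to cDC2 in KO than in WT. No cause was tested.

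Genes called in both genotypes in opposite directions, higher in cDC1 in KO and in cDC2 in WT, had log2 differences as follows: Klrb1b 10.10, Gria3 6.95, Skint3 5.50, Cd163 5.32, Oas3 5.30, Lifr 4.95, Oasl2 4.91, Pla2g7 4.62, Klra2 4.54, Prdm1 4.23, Clec5a 3.87, Ifi203-ps 3.76, Ifi203 3.68, Spn 3.56, Gpr160 3.35, Socs3 2.93, Dusp2 2.63, Gbp2 2.46, Egr1 2.39, Tnfaip3 2.22 and Pea15a 1.37. Genes called higher in cDC2 in WT and not called in KO had the log2 differences Clec4b1 5.59, Clec4a2 5.19, Ptgir 4.98, Ccl9 4.95, Ltb4r1 4.93, Itgam 4.76, Clec10a 4.32, Tnfsf14 3.93, Fcer1g 3.72, Ptpro 3.58, Oas1g 3.44, Gpr183 3.19, Tnfrsf13b 3.16, Oas1a 3.11, Tnfsf9 2.98, Tnfsf10 2.80, Nlrc4 2.17, Sting1 2.11, Gbp3 2.02, Cd300a 2.01, Ier2 1.51 and Lgmn 1.32. Genes higher in cDC2 in both genotypes, with the narrower difference in KO, had the log2 differences Cd72 3.87, Rtp4 3.76, Dtx1 3.66, Clec4a4 3.57, Cybb 3.33, Ptger3 3.30, Ddx58 3.14, Cadm3 2.99, Itgb3 2.98, Irf4 2.93, Mmp12 2.78, Clec4a1 2.63, Cd209a 2.61, Ms4a4c 2.60, Tlr1 2.51, Ltb 2.30, Klrd1 2.05, Lair1 2.04, Ms4a6c 1.94, Sirpb1b 1.87, Sirpa 1.86, Il2rg 1.58 and Sirpb1c 1.51. Genes called higher in cDC1 in KO only had the log2 differences Fcgr2b 2.44 and Ccl6 2.40. The genes higher in cDC1 in both and wider in KO had Fcrla 3.36 and Cysltr1 2.16. Genes called higher in cDC1 in WT only had the log2 differences Ubtd2 -2.05, Ltbp2 -3.36, Mras -3.49 and Itm2a -6.09. Genes higher in cDC1 in both genotypes and narrower in KO had the log2 differences Slc11a1 -1.93. Genes called higher in cDC2 in KO only had the log2 differences Icos -2.07 and Tpm2 -3.25. Of genes higher in cDC2 in both genotypes, the wider difference in KO was that of Chn2 -1.39.

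Klrb1b, a receptor of the NK cell gene complex, had the largest of these values. It was at 253, 178 and 178 CPM in KO cDC1 and 0.302, 5.35 and 4.45 CPM in KO cDC2, and at 0.44, 0.51 and 0.0578 CPM in WT cDC1 and 16.7, 0.465 and 1.09 CPM in WT cDC2, so that the size of the fold change rests on few reads in the lower groups. The WT libraries of Klrb1b overlapped, with WT cDC2 replicate 1 far above the rest, and its WT call was near the threshold (adjusted p = 0.0411). Its difference between genotypes did not pass with the mouse pool as a block (adjusted p = 0.0872). Of these 78 differences, 46 passed in every alternative tried and 32 did not pass in at least 1, with no call in the other direction. In groups of 3 libraries no single library was tested for standing apart.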

How the results depend on the processing

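Between KO cDC1 and KO cDC2 2264 genes were called. The count was 4237 from the 6 KO libraries alone, 6596 from the libraries numbered 2 and 3, 8089 from the KO libraries less KO cDC2 replicate 1, and 4179 from the KO libraries with the mouse pool in the model, the last pair chosen after seeing the data. Leaving out each library gave 1210 to 3365. Between WT cDC1 and WT cDC2 (2846) it was 1508 from the WT libraries alone, 6386 from those numbered 2 and 3, and 2073 to 3259 with each library left out. The difference between genotypes was called in 190 genes, in 116 with the replicate block by mouse pool, 480 with DESeq2, 302 with gene length offsets, 5157 from the libraries numbered 2 and 3, and 111 to 502 with each library left out. With the block, 1544 genes were called between the KO subsets and 2235 between the WT subsets. The block ended 16 of the 179 calls among the named genes in KO; those whose values the report gives are named there.

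Upper quartile scaling moved the median of all genes by -0.09 and changed the KO count to 2297. Itgam changed direction between the KO subsets, to 0.37 in the libraries numbered 2 and 3 and 0.40 in the KO libraries less KO cDC2 replicate 1. The difference between genotypes of genes not called with all libraries also changed sign. From the libraries numbered 2 and 3 it was -2.25 for Clec9a, -2.08 for Fzd1, -2.46 for Mapk12, 0.74 for Mmp9, 1.65 for Klra17, 0.71 for Il12b, 0.62 for Pfkp and 0.80 for Wdfy4, and with each library left out that of Clec9a was -2.16 to 0.57. Of the 179 named genes called between the KO subsets, 143 were called in every alternative of the plan, 36 were not called in at least 1, and none was called in the other direction. The cause of these changes was not tested.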
